A study of Mus musculus with 20 samples.

Results

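The regions described here are the widest H3K4me3 peaks of embryonic mouse inner ear ganglia that carried no peak of the repressive mark H3K27me3 in a pair of its libraries. They were selected on peak width and on H3K27me3 overlap, and are the 577 peaks of H3K4me3 replicate 2, out of 22425 on chromosomes 1 to 19, X and Y, with a width of 2 kb or more and no overlap with a peak of H3K27me3 replicate 2 or 3. The series used CUT&Tag, in which an antibody directs a transposase to a chromatin protein so that the neighbouring DNA is released and sequenced. The ganglia came from mice of strain C57BL/6J at embryonic stage E11.5, and the tissue is labelled CVG, the usual abbreviation for the cochleovestibular ganglion of the inner ear. The series title names the question, how the transcription factors ISL1 and POU4F1 act together in inner ear sensory neurons. The libraries used were ISL1_26 replicate 1, ISL1_70 replicates 1 to 3, POU4F1 replicates 1 and 2, H3K27ac replicates 1 to 3, H3K27me3 replicates 1 to 3 and H3K4me3 replicate 2. All shared this strain, age and tissue, and the labels give no mutant and no treatment. The meaning of 26 and 70 is not in the labels, and libraries are not tied to separate embryos there, so the spread between libraries may be technical. Each list is one library's peaks. The lists give no read totals, the depth behind them is unknown, and intervals below cover counting error only.

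Trimethylation of histone H3 at lysine 4 (H3K4me3) marks the starts of transcribed genes and is written by enzymes of the SET1 and MLL families. At most genes it is limited to the nucleosomes beside the start, while at a minority it spreads into the gene body, and such broad domains are known for genes of cell identity and for highly transcribed genes. H3K27me3, written by the Polycomb enzyme EZH2, marks repressed or developmentally poised genes, and H3K27ac marks active promoters and enhancers.

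The label "free of H3K27me3" held for the libraries the rule used and not for the library it left out. H3K27me3 replicate 1 had a peak within 422 of the 577 members (73.1%, 95% Wilson interval 69.4 to 76.6), against 17.4% of all H3K4me3 replicate 2 peaks, 50.7% of peaks between 1 and 2 kb wide without H3K27me3 in replicates 2 and 3, and 82.5% of the wide peaks with H3K27me3 in replicate 2 or 3. Wider peaks have more room for such overlaps. Within 250 bp of the summit, a window equal for all, the shares were 51.3%, 15.0%, 40.9% and 53.6% in the same order. Replicate 1 peaks covered 18.8% of members' bases, 18.3% at peaks of 1 to 2 kb and 22.1% at wide peaks with H3K27me3. The 560 peaks of replicate 1 at members had a median −log10 q of 2.50 where the list ends at 1, and 286 of them reached 2. That median was 2.85 for its 208 peaks at wide peaks with H3K27me3 in replicate 2 or 3. It was 1.09 for its 2682 peaks at narrower peaks without H3K27me3 in those replicates. In this library the peaks at members were thus close in strength to those at wide peaks with H3K27me3. The median over its whole list of 19243 peaks was 1.09, so many of its peaks everywhere lay near the cutoff. The members are therefore called wide peaks without H3K27me3 in replicates 2 and 3, and 155 of them had no H3K27me3 peak in any of the 3 libraries. Below, "without H3K27me3" refers to replicates 2 and 3.

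Promoter sequences of 8 genes show the kind of start within 1 kb of which these peaks lay. The start of Sox4 was just outside the edge of its member. Those with a member are Brd2 (the widest member at a protein-coding gene), Basp1, Sox11 and Sox4 (neuronal list genes with members over 4 kb), and Klf7 and Efna5 (ISL1 peaks at the H3K4me3 summit in all 4 ISL1 libraries). Isl1 and Ebf3 are shown for contrast, as genes whose wide peak overlapped H3K27me3. At Isl1 the overlap was with replicate 2 alone (44.7% of the peak's bases). At Ebf3 it was with both, over 49.4% (replicate 2) and 8.52% (replicate 3). Each runs from 250 bases before to 50 bases after the transcription start, 5′ to 3′ on the strand of the gene, as RefSeq gives it on GRCm38.p6 (the mm10 assembly), and all 8 genes lie on the minus strand. Capitals mark the GC box (GGGCGG or its complement CCGCCC), the binding motif of SP and KLF factors.

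Brd2 promoter (chr17:34119851-34120150, minus strand): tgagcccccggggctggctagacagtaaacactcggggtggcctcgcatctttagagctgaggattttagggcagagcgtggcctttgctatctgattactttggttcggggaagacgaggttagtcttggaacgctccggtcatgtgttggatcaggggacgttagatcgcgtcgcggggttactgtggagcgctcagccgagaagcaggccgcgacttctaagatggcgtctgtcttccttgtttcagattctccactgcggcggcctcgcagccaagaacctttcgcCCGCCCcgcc
Basp1 promoter (chr15:25413715-25414014, minus strand): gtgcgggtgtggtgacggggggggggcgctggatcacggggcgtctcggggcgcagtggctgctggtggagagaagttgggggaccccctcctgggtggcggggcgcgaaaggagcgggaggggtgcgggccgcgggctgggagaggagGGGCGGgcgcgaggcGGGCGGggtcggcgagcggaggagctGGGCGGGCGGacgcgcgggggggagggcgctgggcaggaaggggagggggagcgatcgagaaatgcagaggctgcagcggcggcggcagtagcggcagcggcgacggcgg
Sox11 promoter (chr12:27342669-27342968, minus strand): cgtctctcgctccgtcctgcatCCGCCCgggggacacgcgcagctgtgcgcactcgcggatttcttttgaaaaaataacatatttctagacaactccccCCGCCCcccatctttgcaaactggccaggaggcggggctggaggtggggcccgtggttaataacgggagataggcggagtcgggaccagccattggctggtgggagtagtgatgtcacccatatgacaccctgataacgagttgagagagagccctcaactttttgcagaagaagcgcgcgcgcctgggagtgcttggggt
Sox4 promoter (chr13:28953650-28953949, minus strand): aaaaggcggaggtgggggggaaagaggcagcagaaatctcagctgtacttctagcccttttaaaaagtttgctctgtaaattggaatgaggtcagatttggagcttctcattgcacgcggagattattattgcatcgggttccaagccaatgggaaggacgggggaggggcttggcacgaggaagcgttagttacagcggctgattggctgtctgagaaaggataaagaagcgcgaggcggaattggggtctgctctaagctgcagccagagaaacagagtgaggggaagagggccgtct
Klf7 promoter (chr1:64121340-64121639, minus strand): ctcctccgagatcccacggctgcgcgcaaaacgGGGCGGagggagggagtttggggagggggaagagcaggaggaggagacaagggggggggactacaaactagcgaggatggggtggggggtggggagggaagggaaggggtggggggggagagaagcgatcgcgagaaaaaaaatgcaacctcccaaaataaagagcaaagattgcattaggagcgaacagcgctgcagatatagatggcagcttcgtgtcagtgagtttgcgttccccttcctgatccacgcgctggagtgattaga
Efna5 promoter (chr17:62881268-62881567, minus strand): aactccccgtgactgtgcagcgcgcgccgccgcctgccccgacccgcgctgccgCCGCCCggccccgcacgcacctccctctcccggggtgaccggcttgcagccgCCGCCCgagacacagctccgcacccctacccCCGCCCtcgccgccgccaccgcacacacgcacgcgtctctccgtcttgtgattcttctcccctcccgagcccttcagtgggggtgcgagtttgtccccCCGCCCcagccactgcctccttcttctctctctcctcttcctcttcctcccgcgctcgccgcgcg
Isl1 promoter (chr13:116309639-116309938, minus strand): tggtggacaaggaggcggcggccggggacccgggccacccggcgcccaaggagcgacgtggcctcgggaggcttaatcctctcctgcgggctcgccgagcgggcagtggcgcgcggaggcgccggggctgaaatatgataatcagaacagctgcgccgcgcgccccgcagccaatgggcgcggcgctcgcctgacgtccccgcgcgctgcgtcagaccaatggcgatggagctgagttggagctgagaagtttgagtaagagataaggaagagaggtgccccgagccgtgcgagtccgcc
Ebf3 promoter (chr7:137314396-137314695, minus strand): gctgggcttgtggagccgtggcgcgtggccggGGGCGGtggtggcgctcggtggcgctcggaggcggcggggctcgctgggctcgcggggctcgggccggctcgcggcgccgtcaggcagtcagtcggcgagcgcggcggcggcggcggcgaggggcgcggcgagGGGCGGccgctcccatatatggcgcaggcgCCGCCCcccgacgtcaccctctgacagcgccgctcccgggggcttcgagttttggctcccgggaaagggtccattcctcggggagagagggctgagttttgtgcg

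GC boxes were common at these starts. They numbered 1 at Brd2, 4 at Basp1, 2 at Sox11, 0 at Sox4, 1 at Klf7, 4 at Efna5, 0 at Isl1 and 3 at Ebf3. Of 546 promoters of genes with a member, 408 (74.7%) held a GC box on either strand, against 69.5% of promoters with a narrower peak without H3K27me3, 68.4% with a wide peak with H3K27me3 and 46.7% of all 17492 promoters. Median GC content was 66.3% at genes with a member, 62.3% at genes with a narrower peak and 66.8% at genes with a wide peak with H3K27me3, against 56.3% over all promoters. The median number of CpG dinucleotides in 300 bases was 27, 23 and 23 in the same sets and 13 over all promoters. The TATA box (TATAAA) was in 5.13% of members' promoters and 13.2% of all promoters, and the homeodomain core (TAATTA) in 1.47% and 4.71%. The letters CTAATG, searched as an ISL1-type motif, were in 3.30% of members' promoters and 6.54% of all. ATTAAT, searched as a POU4F1-type motif, was in 1.10% and 4.22%. In the same order of motifs, promoters with a narrower peak without H3K27me3 had 5.87%, 1.97%, 4.29% and 2.04%. Those with a wide peak with H3K27me3 had 8.77%, 2.63%, 3.51% and 1.75%, and those with no peak 18.4%, 6.66%, 8.25% and 5.84%. The low shares were therefore common to promoters with an H3K4me3 peak and not particular to members. Motifs were searched on both strands, base composition differs between these sets, and a match is not a bound site. Among the printed promoters, CTAATG was found in that of Klf7 alone.

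The members were the upper tail of a steep distribution. Of the 22425 peaks, 743 (3.31%) were 2 kb or wider, and the 577 members made up 77.7% of those. Their widths ran up to 6672 bp with a median of 2421 bp, against a median of 543 bp (335 to 1995) for the 19070 narrower peaks without H3K27me3. The members covered 1.5 Mb, 9.33% of all bases under H3K4me3 replicate 2 peaks. The authors' fold enrichment at the summit had a median of 76.2 at members and 10.6 at narrower peaks, with a range from 2.17 to 390 among members, so width and height went together only in part. Width comes from the library that chose the members, as does the fold, and both are given as a description. Just inside the limit lay Camsap2, and then Rap2b and a peak on chromosome 14 with no gene start (2003 bp each), and just outside it Hdac5 and Rnf165 (1995 bp each) and Appbp2 (1994 bp). The H3K27me3 rule removed 166 wide peaks, of which 118 met peaks of both replicates, 13 of replicate 2 alone and 35 of replicate 3 alone. The median distance from a member to the nearest H3K27me3 replicate 2 or 3 peak was 42.5 kb, and 33 members (5.72%) were within 5 kb. Those libraries chose the members, and no reference distance was computed. H3K27me3 replicate 1, outside the rule, had a peak within 73.1% of members.

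**Figure D1:**
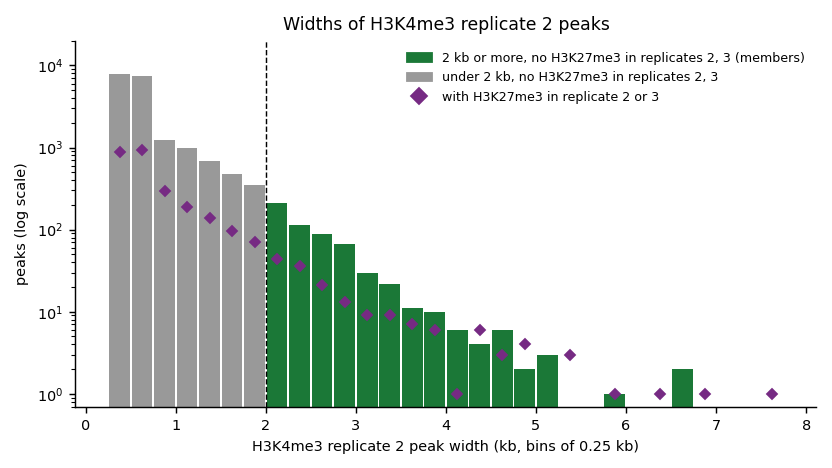
Number of H3K4me3 replicate 2 peaks (y axis, log scale) by width (x axis, kb, bins of 0.25 kb). Green bars are the 577 members, grey bars the 19070 narrower peaks without H3K27me3 in replicates 2 and 3, and purple diamonds peaks with H3K27me3. Counts fall steeply with width, and beyond 5 kb a few peaks of each kind remain.

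Nearly all members lay at gene starts. A protein-coding gene start was within 1 kb of 544 members (94.3%), against 38.1% of all H3K4me3 replicate 2 peaks, 33.2% of narrower peaks without H3K27me3, 91.6% of those of 1 to 2 kb and 84.3% of wide peaks with H3K27me3. One gene was within reach of 419 members, several genes of 125, and no protein-coding gene of 33. Of these 33, 8 reached an end of a noncoding gene and 27 lay inside a protein-coding gene. Together the members marked 672 genes, 3.07% of the 21887 protein-coding genes, and wide peaks with H3K27me3 marked 146 (0.667%). For 126 of the 672 genes the reference table gave no transcription start, so that either end of the gene counted as its start and some of these may be 3′ ends.

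The 10 widest members included regulators of chromatin and RNA. The widest covered Malat1, an abundant nuclear long noncoding RNA, over 6672 bp of chromosome 19 (5797015 to 5803686, mm10). Brd2, which encodes a bromodomain protein that binds acetylated histones, had 6544 bp on chromosome 17 (34117187 to 34123730), a span that also reached H2-DMa. Kmt2e had 5871 bp on chromosome 5 (23431252 to 23437122). Mex3b (5244 bp), Mex3a (4758 bp) and Igf2bp1 (5000 bp) encode RNA-binding proteins. Tubb2b, a beta-tubulin of developing neurons, had 4667 bp. Midn (5193 bp), Cemip2 (4909 bp) and Anp32a (4689 bp) completed the 10. Fold enrichment among the 10 ran from 313 at Kmt2e to 21.8 at Mex3a, with the next lowest at Tubb2b (66.3). Over all members the median fold rose with width, from 72.1 at 2 to 3 kb to 96.1 at 3 to 4 kb and 108 at 4 kb or more.

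H3K27ac was called at nearly every member. At H3K27ac replicate 1, the shortest list with 8855 peaks, 82.7% of members had a peak within 250 bp of the H3K4me3 summit, against 15.9% of narrower peaks without H3K27me3 and 18.4% of all H3K4me3 peaks. At replicate 2 the shares were 96.2% of members, 38.3% of narrower peaks and 41.6% of all, and at replicate 3 they were 93.1%, 37.7% and 40.6%. Replicates 2 and 3 had the longer lists, of 106628 and 168144 peaks. The 3 differences averaged 60 ± 6.01 percentage points (SD, n = 3 libraries). Between members and narrower peaks that both lay at gene starts the average was 21.8 ± 15.0 points, or 13.2 without H3K27ac replicate 1. Against peaks of 1 to 2 kb it was 10.7 ± 9.2 points, or 5.4 without H3K27ac replicate 1. With the whole peak in place of the window, 516 members (89.4%) had H3K27ac in all 3 libraries. The share was 17.2% of all H3K4me3 peaks, 63.1% of those of 1 to 2 kb without H3K27me3 and 83.1% of wide peaks with H3K27me3. H3K27ac was in no library at 0 members, against 50.1% of all and 1.81% of those of 1 to 2 kb. Of wide peaks with H3K27me3, 0% had it in no library. The whole-peak shares were 91.9%, 99.5% and 97.2% of members in replicates 1 to 3, against 20.0%, 42.3% and 41.8% of all peaks. Near the summit, H3K27ac was missing from all 3 libraries at 2 members (0.347%, against 50.5% of all peaks), one inside Pfkp on chromosome 13 (6605137 to 6607707) and one at Tmem120a.

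ISL1 and POU4F1 peaks were found at a minority of the summits in each single library. Counted over the 4 ISL1 libraries, 204 members (35.4%) had no ISL1 peak within 250 bp of the summit, against 69.6% of all H3K4me3 peaks. That share was 40.4% for peaks of 1 to 2 kb without H3K27me3 and 31.3% for wide peaks with H3K27me3. Within 250 bp of the summit, ISL1_26 replicate 1 had peaks at 27% of members, 13.0% of narrower peaks and 14.2% of all. ISL1_70 replicate 1 had them at 48.7% of members, 15.5% of narrower peaks and 17.3% of all. ISL1_70 replicates 2 and 3, which have shorter lists, had them at 8.67% and 10.2% of members, 3.16% and 4.56% of narrower peaks, and 3.94% and 5.06% of all. POU4F1 replicate 1 stood at 10.1% of members, 4.16% of narrower peaks and 4.83% of all, and POU4F1 replicate 2 at 6.07%, 2.47% and 2.65%. The 4 ISL1 libraries were taken as libraries of 1 target, and the IgG controls were not used here, so no background level of the method stands beside these shares. In each of the 6 libraries the share was higher at members than at narrower peaks. The difference averaged 14.6 ± 13.0 points over the ISL1 libraries (SD, n = 4) and 4.74 ± 1.62 points over the POU4F1 libraries (SD, n = 2). The ISL1 average rested in part on ISL1_70 replicate 1, without which it was 8.42 points. Between members and narrower peaks that both lay at gene starts it was 6.14 ± 6.51 points for ISL1, or 2.89 without ISL1_70 replicate 1, and 2.13 ± 0.33 for POU4F1. Against peaks of 1 to 2 kb it was 3.22 ± 3.4 points for ISL1, or 1.56 without ISL1_70 replicate 1, and 1.41 ± 0.141 for POU4F1.

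Over the 9 libraries together, the share was higher at members than at narrower peaks in 9 of 9, by 27.5 ± 26.1 points on average (SD, n = 9). The exact two-sided sign-flip permutation test over libraries gave p = 0.00391, the smallest that 9 libraries allow. That test takes the libraries as independent, although several share a target and the labels tie none to a separate embryo. Taken alone, no target can pass 0.05, since the smallest p is 0.125 for ISL1, 0.25 for H3K27ac and 0.5 for POU4F1. Members lie at gene starts far more often than narrower peaks (94.3% against 33.2%), and the difference was smaller between classes alike in position or width. Between members and narrower peaks that both lay at gene starts it was 10.5 points (9 of 9 libraries, exact sign-flip permutation p = 0.00391), or 6.90 points without H3K27ac replicate 1. Against peaks of 1 to 2 kb it was 5.32 points (9 of 9, exact sign-flip permutation p = 0.00391), or 3.31 without H3K27ac replicate 1. Where both classes had a fold enrichment of 50 to 100, a choice made after the data had been seen, it was 3.33 points (exact sign-flip permutation p = 0.0234). These comparisons share the same libraries and members and are not independent of each other.

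**Figure D2:**
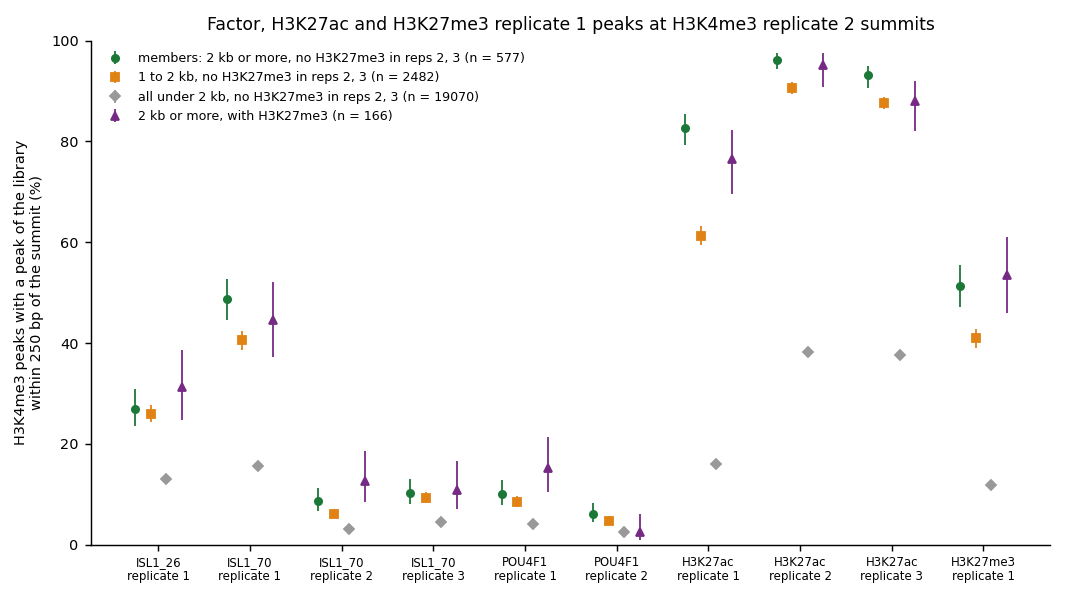
Share of H3K4me3 replicate 2 peaks with a peak of each library within 250 bp of the summit (y axis, %), for members (green), peaks of 1 to 2 kb (orange) and all narrower peaks (grey) without H3K27me3 in replicates 2 and 3, and wide peaks with H3K27me3 (purple). Points are shares and bars 95% Wilson intervals. Members stand above the grey points in every library and close to the orange ones, with the widest gap to the orange ones at H3K27ac replicate 1 (82.7% against 61.3%).

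Below the 2 kb limit the H3K27ac and ISL1 shares had already climbed most of the way. Among peaks without H3K27me3, the mean H3K27ac share was 16.6% under 500 bp, 29.4% from 500 bp, 77.0% from 1000 bp and 85.8% from 1500 bp. Among members it was 89.7% from 2000 bp (326 peaks), 90.5% from 2500 bp (154 peaks), 93.6% from 3 to 4 kb (73 peaks) and 95.8% from 4 kb (24 peaks). The mean ISL1 share over the same 8 steps was 5.74%, 8.78%, 19.6% and 22.2% below 2 kb and 22.9%, 24.5%, 24.7% and 26% among members. The mean POU4F1 share was 2.27%, 3.31%, 6.34% and 7.27% below 2 kb and 9.36%, 5.84%, 6.85% and 8.33% among members, so that it was lower from 2500 bp to 4 kb than in the last step below 2 kb. The step at 1 kb coincided with gene starts, which were near 32.6% of peaks in the step below 1 kb and 90.6% of peaks in the step above it.

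Wide peaks with and without H3K27me3 did not differ beyond the spread between libraries in this readout. Averaged over the 9 libraries, the share was 42.5% at members and 41.8% at the 166 wide peaks with H3K27me3, a difference of 0.685 ± 4.35 points (SD, n = 9). It was higher at members in 5 libraries and lower in 4 (exact sign-flip permutation p = 0.617). The 3 H3K27ac libraries were all higher at members, by 1.01 to 6.16 points, while 3 of the 4 ISL1 libraries were lower, and differences over the 9 libraries ran from -5.01 to 6.16 points. The share of bases covered by peaks was 28.3% at members and 27.4% at wide peaks with H3K27me3 (difference 0.993 points, exact sign-flip permutation p = 0.0859), and p was 0.0156 without POU4F1 replicate 1. A p above 0.05 does not show that the classes are alike.

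Across the full width of a member, ISL1 peaks were more frequent than at the summit. Anywhere in the peak, the ISL1 libraries had a peak at 57.9% (ISL1_26), 73.7%, 19.1% and 26.3% (ISL1_70 replicates 1 to 3) of members, against 17.2%, 20.1%, 4.95% and 6.5% of all H3K4me3 peaks. The POU4F1 libraries had one at 22.2% and 12.7% of members, against 6.04% and 3.39% of all. Wider peaks have more room for such overlaps, and the share of bases covered, which allows for width, ranked the 6 factor libraries in the same order. It was 15.7%, 25.1%, 4.14% and 5.56% of members' bases for ISL1 and 4.64% and 2.34% for POU4F1, and 48.1%, 76.1% and 73.4% for H3K27ac. Over the 9 libraries it was 28.3% at members and 25.3% at peaks of 1 to 2 kb, a difference of 3.05 points (9 of 9 libraries, exact sign-flip permutation p = 0.00391). All 4 ISL1 libraries had a peak in 34 members (5.89%), against 0.548% of all H3K4me3 peaks and 1.09% of those of 1 to 2 kb without H3K27me3. Both POU4F1 libraries had one in 19 members (3.29%), against 0.392% of all and 0.927% of those of 1 to 2 kb. No factor library had a peak in 49 members (8.49%), against 63.1% of all. Of wide peaks with H3K27me3, 4.82% had a peak in all 4 ISL1 libraries and 6.02% in both POU4F1 libraries, the latter a higher share than at members. No ISL1 library had a peak in 11.3% of members and in 9.04% of wide peaks with H3K27me3. Summits of ISL1 peaks inside members lay at a median of 550 to 705 bp from the H3K4me3 summit, those of POU4F1 at 572 and 436 bp and those of H3K27ac at 348 to 458 bp. No expected distance was computed, and nothing is read from these about a displacement.

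The members with factor peaks at the summit in most libraries included several genes of neurons. Klf7, a Krüppel-like factor of developing sensory neurons, had them in 4 ISL1 libraries and 1 POU4F1 library, and its member spanned 2758 bp of chromosome 1 (64119493 to 64122250). ISL1 peaks covered 70.2% (ISL1_26), 48.9%, 35.5% and 30.8% (ISL1_70 replicates 1 to 3) of that member. Prkg1, a cGMP-dependent kinase that acts in branching of sensory axons, had ISL1 peaks over 87.9%, 90.9%, 87.6% and 78.4% of its 2660 bp in the same libraries. At Efna5, an ephrin ligand of axon guidance, they covered 36.6%, 59.9%, 19.1% and 12.7% of 4602 bp. Sox11, a transcription factor of newly formed neurons, had summit peaks in 3 ISL1 libraries and 1 of POU4F1. The same numbers were found at Zfp385a, at the start shared by Fam72a and Srgap2, and at Dbn1, which encodes the actin-binding protein drebrin. Fgfr1, an FGF receptor, had summit peaks in 2 ISL1 libraries and both POU4F1 libraries.

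**Figure D3:**
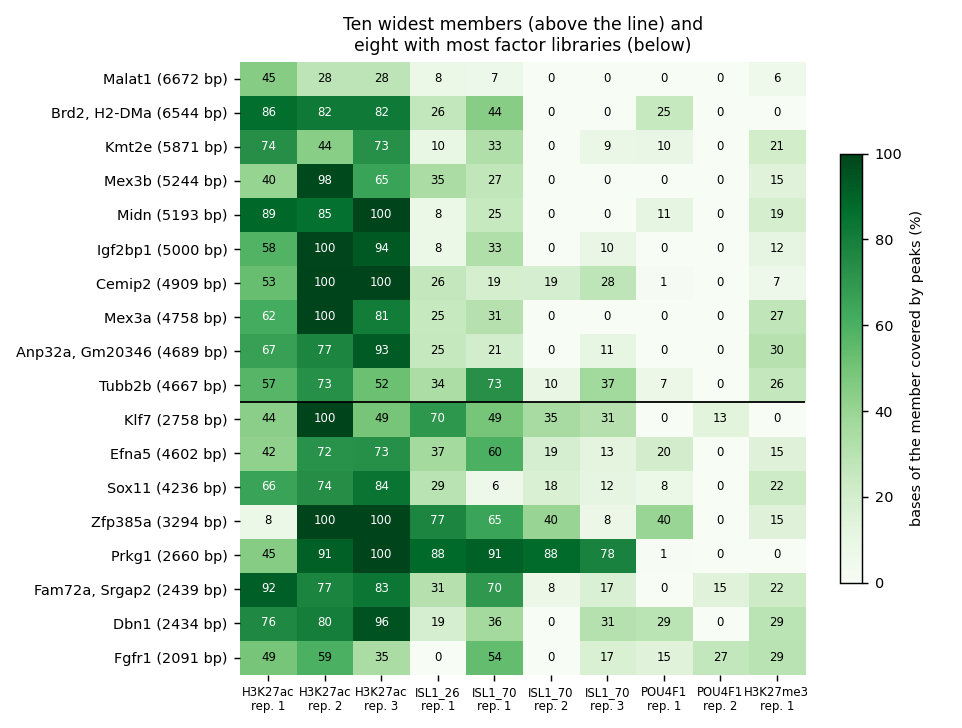
Share of each member's bases covered by peaks of each library (colour and number, %), for the 10 widest members (above the line) and the 8 with factor peaks at the summit in most libraries (below it). H3K27ac covers 28.1% or more of each member in every library, apart from replicate 1 at Zfp385a, while ISL1 and POU4F1 coverage differs widely between libraries, and at Prkg1 all 4 ISL1 libraries cover most of the member.

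H3K4me3 at members extended mainly into the gene. At the 247 members with a single gene start of known strand, the peak reached a median of 1749 bp downstream of the start and 697 bp upstream. It reached farther downstream at 219 of them (88.7%), and its summit was downstream at 90.3%, at a median distance of 500 bp. Peaks of 1 to 2 kb had the same asymmetry, with 996 bp downstream and 361 bp upstream (85.1% farther downstream, n = 1057), and so did wide peaks with H3K27me3, with 2045 and 524.5 bp (95%, n = 80). Within 2 kb of the start, H3K27ac covered more bases downstream than upstream of members' starts in 3 of 3 libraries, by 721, 418 and 379 bp on average (replicates 1 to 3). ISL1 did so in 1 of 4 libraries, with 163 bp more downstream in ISL1_70 replicate 1 and 42.4, 22.3 and 31.2 bp more upstream in the others. POU4F1 coverage differed by 3.38 bp more downstream in replicate 1 and 10.5 bp more upstream in replicate 2. The mean over the 9 libraries at members was 175 bp more downstream (exact sign-flip permutation p = 0.121). It was 118 bp at peaks of 1 to 2 kb and 201 bp at wide peaks with H3K27me3 (exact sign-flip permutation p = 0.0469 for each). The H3K27ac lean was thus not particular to members. In replicates 1 to 3 it was 357, 295 and 277 bp at peaks of 1 to 2 kb and 715, 464 and 471 bp at wide peaks with H3K27me3. H3K27me3 replicate 1 covered 378 bp downstream and 133 bp upstream at members.

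**Figure D4:**
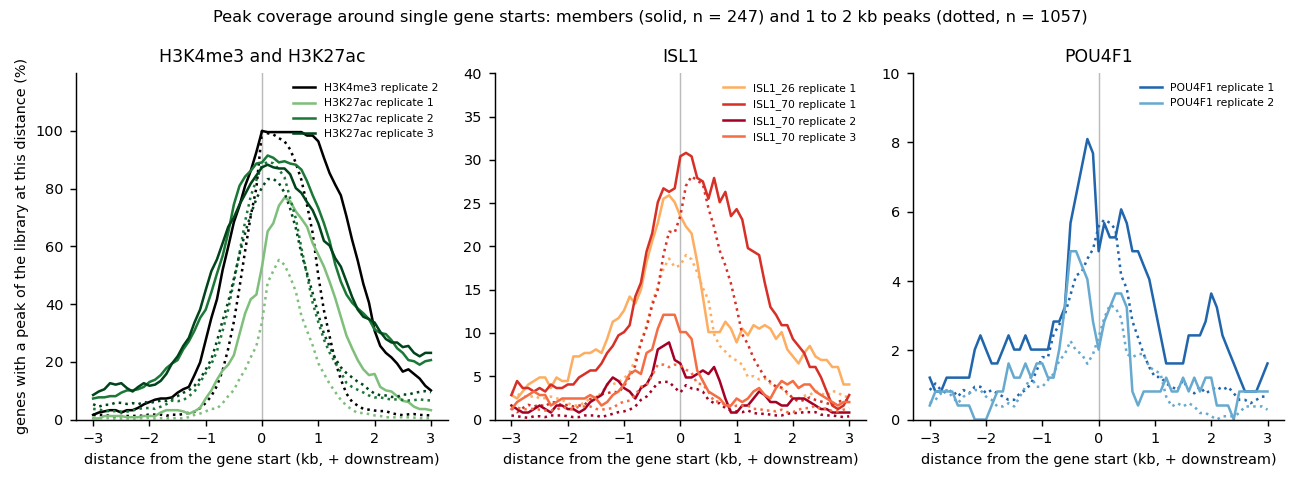
Share of genes with a peak of each library at each distance from the gene start (y axis, %, x axis in kb, positive downstream), for members (solid lines, n = 247) and peaks of 1 to 2 kb (dotted, n = 1057). At members, H3K4me3 is at 96.4% of genes 1 kb downstream and 27.5% 1 kb upstream, H3K27ac leans the same way, and ISL1 coverage peaks within a short distance of the start.

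The share of genes with a member differed between the gene lists, from 0 to the 44.8% of the chromatin list. Of 29 genes of chromatin and transcription machinery, 13 had a member at the start (44.8%, against 3.07% of all protein-coding genes). Among genes with any H3K4me3 peak the share was 46.4% in the list and 7.57% over all. In this list 1 gene, the nucleosome remodeller Chd4, had a wide peak with H3K27me3, from replicate 3 alone (12.9% of its bases). The 4 widest members were at Brd2, Arid1a (3465 bp), Kmt2c (2984 bp) and Ctcf (2680 bp). Arid1a is a subunit of the BAF remodelling complex, Kmt2c a writer of H3K4 methylation and Ctcf the architectural zinc finger protein. The other 9 were Kmt2d, Med13, Kdm6a, Ezh2, Hdac1, Kmt2a, Ep300, Kdm5b and Kmt2b. Enzymes of H3K4 methylation and of H3K27 methylation (Ezh2, and Kdm6a, which removes it) were both among the members. Of 22 cytosolic ribosomal protein genes, 6 had a member and 0 a wide peak with H3K27me3, with Rpl7 (2855 bp) and Rps14 (2253 bp) the widest. Of 20 housekeeping genes, 4 had a member (Gapdh, Hsp90ab1, Tfrc and Vcp) and 0 a wide peak with H3K27me3. Of 23 cell cycle and progenitor genes, 3 had a member (Mycn, E2f3 and Cdkn1b). Among genes with an H3K4me3 peak, members were at 27.3% of the ribosomal, 23.5% of the housekeeping and 15.8% of the cell cycle list, against 7.57% over all genes.

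Genes of the neuronal cytoskeleton and growth cone were divided between the classes. Of 27, 6 had a member (22.2%, against 3.07% of all protein-coding genes) and 4 a wide peak with H3K27me3 (14.8%, against 0.667%). Among genes with an H3K4me3 peak, 24.0% of the list had a member, against 7.57% over all genes. The members were at Tubb2b, Basp1 (4330 bp), Marcks (2531 bp), Gap43 (2457 bp), Marcksl1 and Stmn1, which encode tubulin, growth cone membrane proteins and a tubulin-binding protein. The wide peaks with H3K27me3 were at Tubb3 (4374 bp), Nefm, Ina and Dpysl5. That at Tubb3 overlapped replicate 2 alone, over 26.2% of its bases. The member at Marcksl1 is also that of Hdac1, on chromosome 4 (129513116 to 129515235), so a single peak counts in both lists.

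Among 26 transcription factors of the inner ear and of sensory neurons, 24 had an H3K4me3 peak. Of the 24, 14 had a wide one and 9 a narrower one with H3K27me3. Of the 14, 3 were members and 11 overlapped H3K27me3, whereas over all genes 672 of 818 wide starts (82.2%) were members. The 3 members were at Sox11 (4236 bp, chromosome 12, 27338585 to 27342820), Sox4 (4026 bp, chromosome 13, 28949672 to 28953697) and Eya1 (2690 bp), a phosphatase and transcriptional cofactor of the otic lineage. The 11 others included Ebf3 (6854 bp), Gata3, Tlx3, Ebf1, Isl1 (3952 bp), Nhlh2, Nhlh1 and Neurod1. Pou4f1 had a peak of 1122 bp with H3K27me3. The 5 widest peaks with H3K27me3 lay at Ebf3, Isl2, Pcdh17 and Onecut1 and at a place on chromosome 6 with no protein-coding start (7532 bp). Bulk chromatin mixes all cells of the ganglion, so a gene marked by H3K4me3 in some cells and H3K27me3 in others cannot be told apart from one that carries both marks.

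The other lists held 0 to 2 members each. These counts are small beside list sizes of 15 to 25, with 3.07% of all protein-coding genes and 7.57% of those with an H3K4me3 peak marked, and nothing is read from them. Axon guidance and adhesion had 2 of 25 genes (Efna5 and Efnb2), neuronal RNA-binding proteins 1 of 15 (Elavl4), neurotrophin and survival signalling 1 of 20 (Bcl2l1, an antiapoptotic protein), immediate early and stress genes 1 of 22 (Jund) and otic epithelium and hair cells 1 of 20 (Jag1, a Notch ligand). In these 5 lists, wide peaks with H3K27me3 were at 1 (Ncam1), 2 (Elavl3 and Nova2), 1 (Ntrk2), 0 and 0 genes. That at Ncam1 overlapped replicate 2 alone, over 29.9% of its bases. No member was found among 24 genes of synapse and excitability, 20 Hox genes or 20 genes of Schwann cells and neural crest, where 0, 0 and 3 genes had a wide peak with H3K27me3 (Zeb2, Erbb3 and Sox10 for the last). The lists of endothelium and blood, of mesenchyme and cartilage, and of muscle, heart, gut and liver had 0 members of 20 each and 0 wide peaks with H3K27me3. Of those 3 lists, 5, 9 and 1 genes had any H3K4me3 peak. Over all 372 list genes, 41 had a member, and for 11 of the 41, such as Rpl7, Tubb2b, Gap43 and Eya1, the start was taken as either gene end. The lists were drawn up with earlier results of these data known, and the counts are descriptions.

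**Figure D5:**
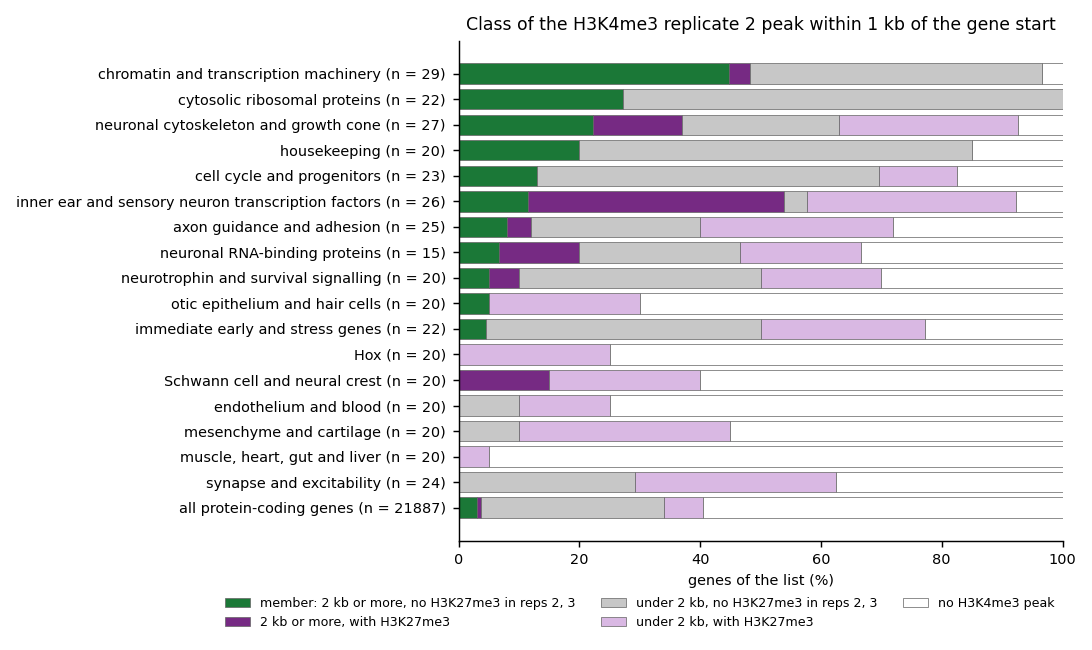
Genes of each list (x axis, %) by the H3K4me3 replicate 2 peak within 1 kb of their start: a member (green), a peak of 2 kb or more with H3K27me3 (purple), a narrower peak without H3K27me3 in replicates 2 and 3 (grey) or with it (light purple), or none (white). Chromatin genes have the largest green share (13 of 29) and inner ear transcription factors the largest purple share (11 of 26), while all protein-coding genes have 3.07% and 0.667%.

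The widest members without a protein-coding start lay at noncoding genes or inside protein-coding genes. Of all 33 such members, 8 reached an end of a noncoding gene and 27 lay inside a protein-coding gene. After Malat1, the widest were at the long noncoding RNA 5430416N02Rik (3360 bp, chromosome 5), inside Fignl2 on chromosome 15 (3247 bp, 101075949 to 101079195), at the noncoding 2810410L24Rik (3206 bp, chromosome 11) and inside Dlc1 on chromosome 8 (3153 bp, 36610790 to 36613942). H3K27ac was called somewhere in each of these 5 in all 3 libraries. Peaks of ISL1 were called in all 4 libraries at the member in Dlc1, which they covered by 46.6% (ISL1_26), 57.3%, 9.71% and 19.5% (ISL1_70 replicates 1 to 3).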

How the data were processed

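Peak lists of 13 of the 20 CUT&Tag libraries were read, restricted to chromosomes 1 to 19, X and Y. H3K4me3 replicate 1 was not used, in keeping with the rule that defines the regions, and the 6 IgG libraries were not used here. Per the file headers (the peak names), the authors called peaks with MACS2 in each library, without pooling, against a control that, like the options, is not given in the sources used here. The submitters' processing notes name FastQC, Bowtie2, SEACR and mm10. The deposited columns hold each peak's fold enrichment (a ratio to local background), the −log10 of its p-value and of its q-value, and its summit position. The smallest −log10 q in any list is 1. A longer list gives more overlaps by itself, so classes of regions were compared within a library and never between libraries.

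Overlap was 1 bp or more. The main measure was a peak of a library within 250 bp of the H3K4me3 summit, which gives wide and narrow peaks a window of equal length. The library was the unit of each test, an exact two-sided sign-flip permutation of differences in share over 9 libraries (Python 3.11.15, numpy 2.4.6, pandas 2.3.3), tested first on simulated data. Genes came from RefSeq GRCm38.p6: 17492 of 21887 protein-coding genes had a transcription start in the promoter table, and the other 4395 were placed by either end. A gene with peaks of several classes counted once, members first.

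Members, the 17 gene lists (372 genes) and the tests were chosen with earlier results of these data known. Named regions were the 10 widest members, those beside the width limit, up to 4 per gene list, the 8 with factor peaks in most libraries, those without H3K27ac or a coding start, the 5 widest peaks with H3K27me3, and Isl1 and Pou4f1. The further list members named where a list has few were added after their values were seen. Some genes of the lists are not reported by name here.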

Additional observations from a re-analysis of the deposited data

How the results depend on the processing

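The higher share at members than at narrower peaks over 9 libraries kept its direction and stayed below 0.05 in 22 of 22 alternatives. The differences ran from 3.33 to 39.6 points, and leaving out 1 library gave 22.6 to 30.5. Those 9 leave-out runs could not have failed. All 9 differences were positive, which fixes the exact sign-flip permutation p at 0.00781, the smallest for 8 libraries. The other alternatives reuse the same libraries. By target, the H3K27ac difference of 60 points was 21.8 between peaks at gene starts, 10.7 against peaks of 1 to 2 kb and 6.03 at a fold of 50 to 100, and 56.6 to 62.3 with a library left out. Without H3K27ac replicate 1 the matched values were 13.2 and 5.4. The ISL1 difference of 14.6 was 33.9 with the whole peak, 6.14 at gene starts, 3.22 against peaks of 1 to 2 kb, 4.25 where all 3 H3K27ac libraries had a peak, 2.66 at a fold of 50 to 100, and 8.42 to 17.7 with a library left out. Without ISL1_70 replicate 1 it was 2.89 at gene starts and 1.56 against peaks of 1 to 2 kb. The POU4F1 difference of 4.74 was 13.5 with the whole peak, 2.13 at gene starts, 1.41 against peaks of 1 to 2 kb, 1.27 where all 3 H3K27ac libraries had a peak, 0.608 at a fold of 50 to 100, and 3.6 or 5.89 with 1 library. The strata by H3K27ac and by fold, and the matched values without a library, were added after the data had been seen. Against wide peaks with H3K27me3 the direction turned with the whole peak (-1.30 points, exact sign-flip permutation p = 0.422), with exclusion by all 3 H3K27me3 libraries (-0.997, exact p = 0.344) and at a fold of 50 to 100 (-1.70, exact p = 0.402), and leaving out a library gave 0 to 1.4. The cause of these shifts was not tested. The set held 1395 members at 1500 bp, 97 at 3000 bp and 155 with all 3 H3K27me3 libraries excluded. Gene starts were at 91.8% of members of 3000 bp, 83.9% with the start inside the peak and 96.4% within 5 kb. H3K27me3 replicate 1 was at 44.1% of members at a q of 0.01 or less and at 51.3% in the summit window. No paired analysis was possible because the replicate numbers of different targets do not mark shared samples and each comparison is between classes of regions within a library. Depth is unknown, so a missing peak is not shown to be absent signal, and with 1 H3K4me3 library the widths have no replicate.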

Other observations

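Members were spread over all chromosomes except Y, which had 0 of 128 H3K4me3 peaks among them. The share of a chromosome's H3K4me3 peaks that were members was highest on chromosome 11 (61 of 1495, 4.08%) and lowest, apart from Y, on X (10 of 861, 1.16%). Hairpins of microRNAs overlapped 10 members, with 11 of the 1005 hairpins on these chromosomes.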
